A study of Mus musculus with 30 samples.

Results

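Cells rid themselves of cholesterol through a short chain of proteins, and 10 genes of that chain were followed here in 3T3-L1 cells, a mouse preadipocyte line that turns into fat-storing cells in adipogenic medium. The genes were chosen by name, for their role, out of 54232 genes in the count table: Abca1, Abcg1 and Apoe (efflux), Nr1h2, Nr1h3 and Mylip (the LXR receptors and a target ligase), Npc1, Npc2 and Lipa (release from the lysosome) and Soat1 (storage as ester). Earlier results of these data were known when the 10 were chosen. All 10 were among the 20139 genes with more than 14 counts over the 30 libraries, which were the genes tested. RNA was sequenced in 6 groups of 5 libraries. The groups compare 2 oxidant stimuli, oxidized LDL and a uremic toxin, with and without a peptide that blocks signaling through the Na,K-ATPase and Src.

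Control cells received adipogenic medium alone, and all groups were given that medium for 5 days. The pNaKtide group received the cell-permeable peptide pNaKtide at 0.7 µM, the IS group indoxyl sulphate at 100 µM, and the oxLDL group oxidized LDL at 50 µg/mL. The IS + pNaKtide and oxLDL + pNaKtide groups received both agents at these doses. The labels give 5 days of treatment and the study's methods a shorter one. The cells are 1 line, the labels name no separate cultures or batches, and the labels' text on RNA extraction speaks of adipose tissue although source and cell line are 3T3 cells. The p-values therefore measure the spread between these libraries, which may be technical in part.

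Cholesterol that enters a cell in LDL is freed from its ester by acid lipase in the lysosome and passed out of the lysosome by NPC2 and NPC1. Part of it is re-esterified for storage, and part leaves through ABC transporters to apolipoprotein particles. The liver X receptors, nuclear receptors that bind oxidized cholesterol, switch on the transporters and also MYLIP, a ligase that sends lipoprotein receptors for degradation, so that export rises and uptake falls together.

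Library depth, as the sum of gene counts, ran from 6945498 to 15159877 around a median of 11524210. The cells carried adipocyte markers in every group, with 8 of 9 marker genes at a mean of 52.6 FPKM or more over the 30 libraries and Car3 at 1.68 FPKM. Of 11 macrophage markers, Ptprc, Itgam, C1qa and C1qb had 0 counts in all 30 libraries. The 11 together made up 8.55 to 13.9 CPM per library, scaled to library size alone. On the first principal component of log2 CPM, which held 64.4% of the variance, 4 libraries had the widest gaps to the rest of their groups. Control replicate 1 had a score of -25.8 against 6.47 to 29.9 for the rest of its group, within the oxLDL range of -41.9 to -14.7. IS replicate 4 had 28.2, against -36.7 to -23.2 for the rest of the IS group. Control replicate 1 thus lay among the other IS libraries as well, and IS replicate 4 among the other Control libraries. Whether the labels of these 2 libraries are crossed was not tested. The labels were kept as deposited, so every Control and IS value carries that doubt. The results of the 10 genes that rest on these first 2, and the list counts that they move most, are given with and without them. The other 2 were oxLDL + pNaKtide replicate 4, at 67.5 against 14.5 to 33.2 for its group, and pNaKtide replicate 3, at -5.36 against 15.9 to 36.6.

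The stretches of DNA just before the transcription start of 4 genes are shown because Abca1 is the textbook LXR target and Nr1h3, Npc2 and Mylip were each called in several comparisons. They are RefSeq sequences of GRCm38.p6, 250 bases each, read 5′ to 3′ along the gene. The Nr1h3 window lies before a RefSeq start that is inside the longer gene span of the GENCODE annotation. RefSeq windows were found for 8 of the 10 genes, 11 windows in all. Capitals mark letters that match, on either strand, a form of the LXR element (GGTTA and CGGTCA with 4 bases of any kind between them), the E-box CACGTG, the CCAAT box or the GC box GGGCGG.

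Abca1, chr4:53159896-53160145, minus strand: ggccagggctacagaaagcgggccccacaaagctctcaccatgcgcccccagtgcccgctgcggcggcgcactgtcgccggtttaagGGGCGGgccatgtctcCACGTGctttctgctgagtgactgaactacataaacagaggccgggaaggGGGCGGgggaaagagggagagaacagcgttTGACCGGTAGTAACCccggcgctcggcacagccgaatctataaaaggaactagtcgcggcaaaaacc

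Nr1h3, chr2:91195117-91195366, minus strand: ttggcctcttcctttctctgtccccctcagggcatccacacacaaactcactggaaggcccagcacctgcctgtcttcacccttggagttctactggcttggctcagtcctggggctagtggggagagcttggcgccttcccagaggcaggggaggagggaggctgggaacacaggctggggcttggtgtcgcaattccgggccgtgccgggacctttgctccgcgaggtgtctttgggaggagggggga

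Npc2, chr12:84773113-84773362, minus strand: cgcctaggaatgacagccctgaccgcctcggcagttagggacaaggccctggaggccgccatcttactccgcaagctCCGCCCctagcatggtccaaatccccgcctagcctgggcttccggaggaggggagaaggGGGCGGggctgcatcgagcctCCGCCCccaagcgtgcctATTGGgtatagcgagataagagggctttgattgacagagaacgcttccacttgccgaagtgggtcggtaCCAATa

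Mylip, chr13:45389492-45389741, plus strand: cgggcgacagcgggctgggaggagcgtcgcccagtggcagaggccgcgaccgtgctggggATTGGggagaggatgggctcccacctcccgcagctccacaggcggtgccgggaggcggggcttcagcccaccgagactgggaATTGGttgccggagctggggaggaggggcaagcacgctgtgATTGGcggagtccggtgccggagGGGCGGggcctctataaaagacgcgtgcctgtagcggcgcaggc

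The LXR element form lies at bases -67 to -53 from the Abca1 start, on the strand opposite to the gene, as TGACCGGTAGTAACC. It was present in 0.0122% of 32851 promoter windows, and in no other member's window. The form was settled on after one with another letter in front, AGGTTA, had been searched and not found. Its match in Abca1 is therefore not a test of the motif. The consensus half-site AGGTCA was in none of the 11 windows and in 14% of all windows. A pair of AGGTCA half-sites with 4 bases between them was in none of the 11 and in 0.0152% of all. The E-box was present in the window of Abca1 alone (6.02% of all windows), the CCAAT box in those of Lipa, Mylip, Npc2 and Soat1 (33.8%), and the GC box in those of Abca1, Mylip and Npc2 (32.7%). None of the 4 motifs was found in the Nr1h3 window shown.

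Per kilobase of exon, the lysosomal carrier and the receptors stood above the transporters. Over the 30 libraries the mean level was 154 FPKM for Npc2, 62.5 FPKM for Nr1h3, 37.2 FPKM for Lipa, 25.7 FPKM for Nr1h2, 18.7 FPKM for Mylip and 12.4 FPKM for Abca1. Soat1, Npc1, Apoe and Abcg1 were lowest, at 4.71, 4.14, 3.68 and 3.57 FPKM. Apoe thus stood near the bottom of the 10 genes, and with 2690 counts in all it was also the member with the fewest reads. Each gene moved over a narrow range. The highest group mean was between 1.13 times (Lipa) and 1.74 times (Nr1h2) the lowest group mean on the CPM scale, and for no gene did 2 groups next to each other in the order of means lie apart without overlap. In edgeR's test for any difference among the 6 groups, 8 of the 10 genes passed a BH-adjusted p of 0.1, as did 45.1% of all genes tested. Abca1 (adjusted p = 0.58) and Lipa (adjusted p = 0.103) did not pass in that edgeR test.

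**Figure D1:**
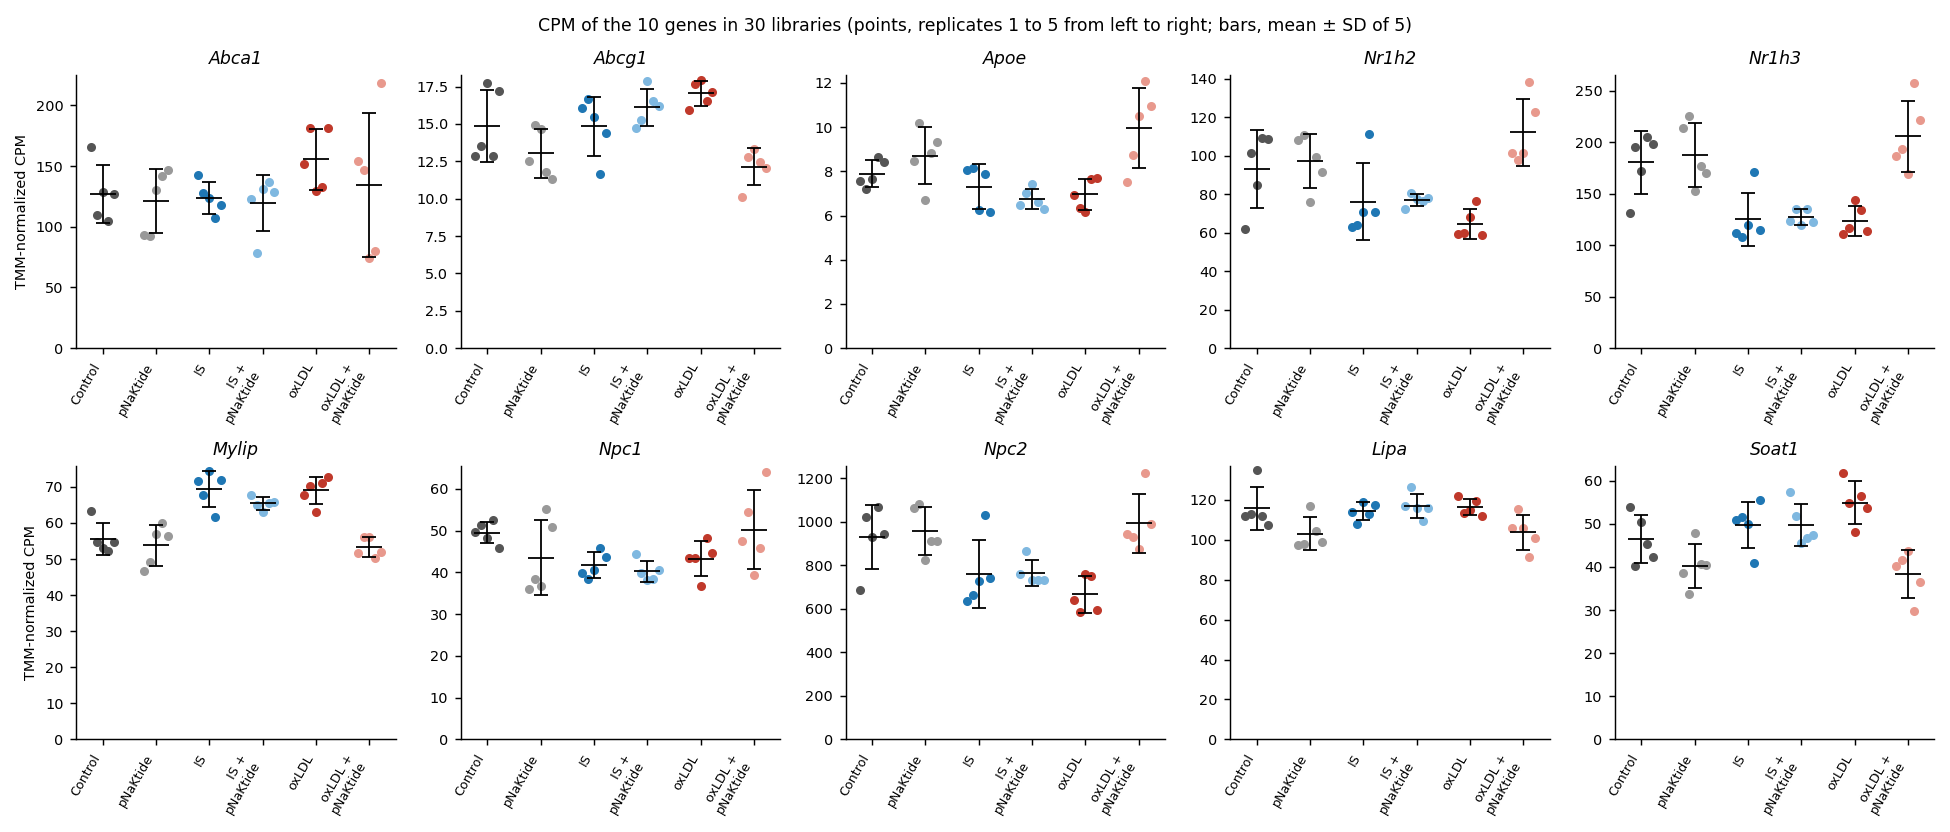
TMM-normalized CPM (linear axes from 0) of the 10 genes in each of the 30 libraries, with points for the 5 libraries of a group and bars for their mean ± SD. Nr1h2, Nr1h3 and Npc2 are lowest with oxLDL and highest with oxLDL + pNaKtide, Mylip and Soat1 run the other way between these groups, and Abca1 with oxLDL + pNaKtide spreads from 74.6 to 218 CPM.

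With oxLDL, both LXR receptor genes and Npc2 were lower than in control cells, and Mylip and Soat1 were higher, while neither transporter passed the test. Past the threshold were 5 of the 10 genes, against 36.0% of all genes tested. Higher were 2 of the 10 (18.1% of all genes) and lower 3 of the 10 (18.0% of all genes). The median log2 fold change of the 10 was -0.08, and that of all genes 0.045.

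Nr1h3 (ENSMUSG00000002108, chr2:91184061-91202834) encodes LXRα, the receptor form abundant in fat, liver and macrophages. Positions are on GRCm38. In control libraries it had 131, 195.5, 172, 205 and 198 CPM, and with oxLDL 110.4, 117, 143, 134 and 113 CPM. The one control library inside the oxLDL range was replicate 1. Nr1h3 fell by 0.55 in log2 terms (SE 0.13, adjusted p = 0.00818, edgeR), to 124 ± 14.4 from 180.3 ± 30.3 CPM (SD, n = 5).

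Nr1h2 (ENSMUSG00000060601, chr7:44549616-44553951) encodes LXRβ, the form present in nearly all tissues. It had 61.8, 102, 84.7, 109 and 109 CPM in control cells and 59.4, 59.8, 68.2, 76.7 and 58.8 CPM with oxLDL. Control replicate 1 was again the only control library at the oxLDL level. The log2 fold change was -0.53 (SE 0.14, adjusted p = 0.0112, edgeR).

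Mylip (ENSMUSG00000038175, chr13:45389742-45412022), the ligase whose transcription LXR drives, moved against the receptor genes. Its levels were 63.3, 54.8, 53.2, 52.2 and 54.7 CPM in control cells and 67.8, 70.4, 63.1, 71.2 and 72.8 CPM with oxLDL. The groups met only at control replicate 1 and oxLDL replicate 3. Mylip rose by 0.31 in log2 terms (SE 0.08, adjusted p = 0.00818, edgeR).

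Among the lysosomal genes, Npc2 (ENSMUSG00000021242, chr12:84754562-84773152), whose small soluble product binds cholesterol freed in the lysosome, had 688, 1022, 931, 1069 and 941 CPM in control cells. With oxLDL it had 641.5, 585, 761, 749 and 592 CPM, below every control library but replicate 1. The log2 fold change was -0.48 (SE 0.13, adjusted p = 0.00998, edgeR). Npc1 (ENSMUSG00000024413), the membrane protein that takes cholesterol over from NPC2, had 49.5 ± 2.55 CPM in control cells and 43.3 ± 4.17 CPM with oxLDL, and its log2 difference of -0.19 (SE 0.11) did not pass (adjusted p = 0.211, edgeR). Npc1 shares 511 exon bases, 4.52% of its exon length, with Rmc1 on the other strand, and the strand setting of the counting is not given, so reads of the overlap may belong to either. Lipa (ENSMUSG00000024781, chr19:34492318-34527474), lysosomal acid lipase, averaged 116 CPM in either group, with an SD of 4.08 under oxLDL and 10.9 in Control, and its log2 difference was 0.01 (SE 0.07).

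Soat1 (ENSMUSG00000026600, chr1:156424525-156474331), which esterifies cholesterol in the endoplasmic reticulum for storage in droplets, had 53.8, 40.2, 50.5, 45.4 and 42.4 CPM in control cells and 61.8, 54.8, 48.0, 56.3 and 53.7 CPM with oxLDL. The groups overlapped, with control replicates 1 and 3 above the lowest oxLDL library. Soat1 rose by 0.24 in log2 terms (SE 0.10, adjusted p = 0.0795, edgeR). It was past the threshold in only 3 of the 10 fits that left out 1 library. Its call was lost without Control replicate 2, 4 or 5 or oxLDL replicate 1, 2, 4 or 5, with an adjusted p of up to 0.215 in edgeR.

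The efflux genes did not pass. Abca1 (ENSMUSG00000015243, chr4:53030787-53159895), which loads cholesterol onto lipid-poor apolipoprotein, had 165.5, 109.9, 129, 105 and 127 CPM in control cells and 151, 181, 129.7, 133 and 182 CPM with oxLDL. All 5 oxLDL libraries were above the control mean, and the groups overlapped through control replicate 1 alone. The log2 difference was 0.29 (SE 0.21, adjusted p = 0.315, edgeR), and its SE was the largest of the 10 genes. Without Control replicate 1 and IS replicate 4 it was 0.40 (adjusted p = 0.175, edgeR). Abcg1 (ENSMUSG00000024030, chr17:31057675-31117988), which exports cholesterol to larger particles, differed by 0.20 (SE 0.11, adjusted p = 0.178, edgeR) and Apoe (ENSMUSG00000002985, chr7:19696109-19699188), the apolipoprotein that carries it away, by -0.18 (SE 0.13, adjusted p = 0.317, edgeR). Abcg1 passed without Control replicate 3, where the log2 difference was 0.27.

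Leaving out Control replicate 1 and IS replicate 4, a choice made after the data were seen, left the count for oxLDL at 5 of 10, against 47.6% of all genes. The same 5 genes were called, with a log2 fold change of -0.65 for Nr1h2 and -0.64 for Nr1h3.

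GC content and length of the genes moved with these results. Each library had a smooth trend of counts over the GC content and exon length of genes, and the trend differed between groups. For Nr1h2, of 60.9% GC, its mean was 0.09 on the log2 scale in control libraries, -0.20 with oxLDL and 0.21 with oxLDL + pNaKtide. For Lipa, of 43.6% GC, it was -0.11, 0.27 and -0.26. For Npc2 and Mylip, of 49.9% and 50.0% GC, it stayed between -0.04 and 0.02. With the trend taken out of the fit, 7 of the 10 genes passed in oxLDL against control, as did 18.7% of all genes. Npc2 (-0.49) and Mylip (0.36) were as large as before. Nr1h2 and Nr1h3 were still called but smaller, at -0.22 and -0.23. Abcg1 (0.32), Npc1 (-0.40) and Lipa (-0.38) were then called, and Soat1 (-0.08, adjusted p = 0.57, edgeR) was not. Whether the trend arose in the libraries or in the cells was not tested.

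Markers of other cell states moved with oxLDL too. Their summed CPM were scaled to library size alone, and overlap of the sums on the TMM scale was not tested. The 8 preadipocyte and fibroblast markers summed to between 4236 and 4990 CPM under oxLDL, and to between 5238 and 6736 CPM in Control, without overlap, with 1 of 8 higher and 3 lower. Of 9 adipocyte markers 0 were higher and 3 lower, and their sums overlapped, at 9626 to 12320 and 9760 to 12210 CPM. Of all genes 18.1% were higher and 18.0% lower. When Control replicate 1 and IS replicate 4 were left out, 6 adipocyte markers were lower, and 2 of the 8 others were higher and 4 lower. In that fit 47.6% of all genes were called, against 36.0% with all libraries. With the trend out, 2 adipocyte markers were lower, Fabp4 and Pparg, neither of them among the 3 (Cidec, Cebpa and Lipe). Of all genes 18.7% were then called. In bulk RNA, fewer cells of a type and less RNA per cell cannot be told apart, and the part of these markers in the results was not tested.

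**Figure D2:**
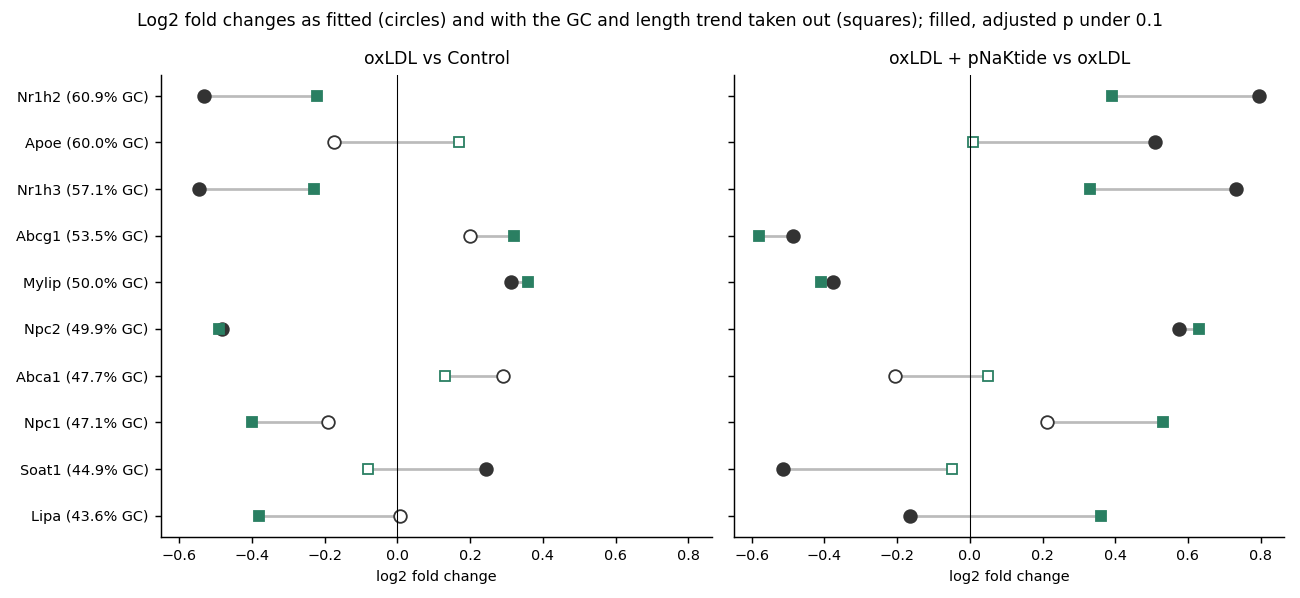
Log2 fold changes of the 10 genes, ordered by GC content, as fitted (circles) and after removal of the trend with GC content and exon length (squares), filled where the adjusted p was under 0.1. Npc2 and Mylip hardly move, Nr1h2 and Nr1h3 shrink but keep their side, Apoe and Soat1 with oxLDL + pNaKtide end near 0, and Lipa changes side.

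Indoxyl sulphate gave fewer calls. Nr1h3 was lower and Mylip higher than in control cells, and these 2 were the only ones of the 10 past the threshold in edgeR, against 7.94% of all genes. DESeq2 called 3, with Npc2 added, against 15.7% of all genes. Nr1h3 had 111, 108, 119, 171 and 115 CPM with IS, where replicate 4 stood far above the other 4, which were below all control libraries. The log2 fold change was -0.53 (SE 0.13, adjusted p = 0.0487, edgeR). Mylip had 71.6, 67.8, 74.3, 61.5 and 72.0 CPM with IS, where control replicate 1 had 63.3 CPM, so that the groups overlapped by that 1 library and IS replicate 4. Mylip rose by 0.32 in log2 terms (SE 0.08, adjusted p = 0.0467, edgeR). Both calls were lost in 7 of the 10 fits that left out 1 library (without Control replicate 2, 4 or 5 or IS replicate 1, 2, 3 or 5), with adjusted p up to 0.18 for Nr1h3 and 0.165 for Mylip in edgeR, and both were lost when only the compared groups were fitted.

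Of the genes that did not pass, Npc2, Npc1 and Nr1h2 had an unadjusted p under 0.05. Nr1h2 had 63.2, 64.0, 71.0, 111 and 70.9 CPM with IS, and Npc2 had 638, 662, 728, 1031 and 739 CPM. In both, replicate 4 stood at the level of the control libraries and the other 4 below all control libraries except replicate 1. Their log2 differences were -0.30 (adjusted p = 0.194, edgeR) and -0.29 (adjusted p = 0.154, edgeR). Npc1 had 39.8, 38.3, 40.7, 45.9 and 43.8 CPM with IS, all below the lowest control value of 46.0 CPM. It was the only one of the 10 whose groups did not overlap (1.81% of all genes did not), yet its log2 difference of -0.25 did not pass (adjusted p = 0.167, edgeR). With the GC and length trend out, 3 of the 10 genes passed for IS, against 4.19% of all genes. They were Nr1h3, smaller at -0.33, Mylip at 0.35 and Npc1 at -0.38 (adjusted p = 0.0624, edgeR).

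Markers moved with IS as well. Of 9 adipocyte markers 0 were higher and 4 lower (Adipoq, Cidec, Cebpa and Retn), and of 8 preadipocyte and fibroblast markers 0 were higher and 3 lower (Ly6a, Col1a1 and Col1a2), where 4.45% of all genes were higher and 3.49% lower. The adipocyte markers summed to 8660 to 10180 CPM with IS and 9760 to 12210 CPM in Control, and the preadipocyte and fibroblast markers to 3353 to 5531 and 5238 to 6736 CPM. Both pairs of ranges, scaled to library size alone, overlapped, and the part of these markers in the IS results was not tested.

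Without Control replicate 1 and IS replicate 4, the count was 6 of 10, against 45.4% of all genes. Nr1h2 (-0.59), Nr1h3, Npc2 (-0.52) and Npc1 (-0.28) were then lower and Mylip and Soat1 (0.22) higher. The number of genes called with IS thus turned on these libraries, for the 10 genes as for all genes. Between oxLDL and IS, 0 of the 10 genes differed in edgeR, in DESeq2 or at an unadjusted p under 0.05, against 0.0149% of all genes called. The largest log2 difference among the 10 was 0.33 for Abca1 (SE 0.21) and the SE of the others ran down to 0.07 for Lipa and Mylip.

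With the peptide alone no difference was detected for the 10 genes. None of the 10 was called with pNaKtide against control in edgeR or DESeq2, against 0.00497% of all genes, and 1, Lipa, had an unadjusted p under 0.05 (log2 difference -0.17, adjusted p = 0.755, edgeR). The SE of these differences ran from 0.07 for Lipa to 0.21 for Abca1.

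Given with oxLDL, the peptide went along with the broadest changes. Both LXR receptor genes, Npc2 and Apoe were higher than with oxLDL alone, and Soat1, Abcg1, Mylip and Lipa were lower. This was 8 of the 10 genes, against 48.3% of all genes tested, with 4 of 10 higher (22.1% of all genes) and 4 of 10 lower (26.1% of all genes). For 6 of the 10 the libraries of the groups did not overlap, as for 28.4% of all genes. This comparison shares its oxLDL libraries with that of oxLDL against control, so the values of the pair are not independent. DESeq2 called the same genes, with Npc1 added. When library size was the sole scaling, the all-gene median went from -0.09 to -0.30 here and from 0.045 to 0.17 in oxLDL against control. It turned the split of calls over all genes from 4458 higher and 5264 lower to 2696 and 7680 here, and from 3637 and 3622 to 4963 and 2276 in oxLDL against control. No call among the 10 genes changed direction under that scaling.

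**Figure D3:**
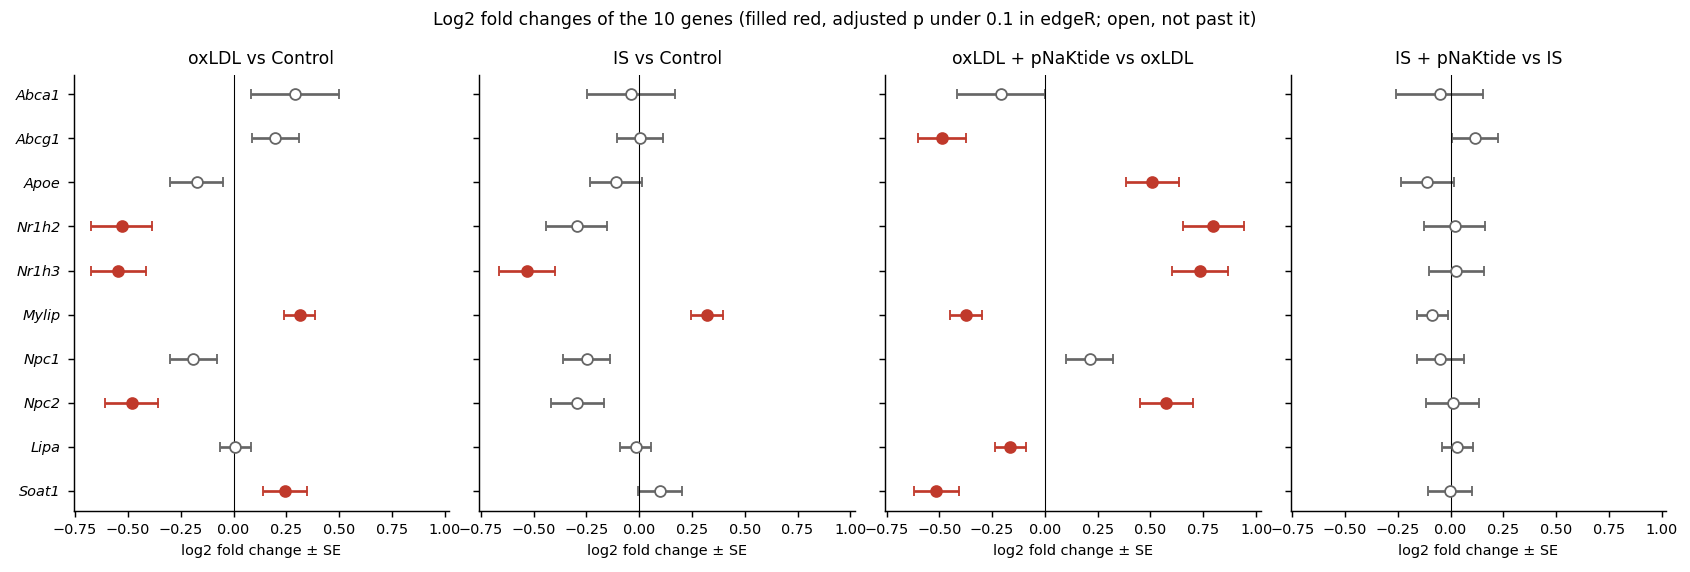
Log2 fold changes (horizontal axis, with SE as bars) of the 10 genes in 4 comparisons from edgeR, filled where the adjusted p was under 0.1. The values for oxLDL + pNaKtide against oxLDL run from -0.51 for Soat1 to 0.80 for Nr1h2, and those for IS + pNaKtide against IS lie between -0.11 and 0.12.

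Nr1h3 had 186, 193, 169, 258 and 221 CPM with oxLDL + pNaKtide, each above the highest oxLDL library at 143 CPM. It rose by 0.73 in log2 terms (SE 0.13, adjusted p = 7.33e-05, edgeR). Nr1h2 had 101, 97.6, 101.5, 138 and 123 CPM, again all above the highest oxLDL value of 76.7 CPM. It rose by 0.80 (SE 0.14, adjusted p = 7.98e-05, edgeR), the largest change among the 10 genes in this comparison. Without the GC and length trend the rises were 0.33 and 0.39, still past the threshold. Npc2 (0.63), Abcg1 (-0.58), Npc1 (0.53) and Mylip (-0.41) then changed more than either receptor gene.

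Mylip fell where the receptor genes rose. It had 51.7, 56.1, 56.2, 50.2 and 52.0 CPM with oxLDL + pNaKtide, below the lowest oxLDL library at 63.1 CPM. The log2 fold change was -0.38 (SE 0.08, adjusted p = 0.000234, edgeR), and -0.41 without the GC and length trend.

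Npc2 had 945, 932, 872, 1224 and 987.5 CPM, with no overlap with the oxLDL libraries, of which the highest had 761 CPM. It rose by 0.58 (SE 0.13, adjusted p = 0.000517, edgeR), and by 0.63 without the trend. Npc1 had 47.5, 54.4, 39.3, 45.9 and 64.0 CPM, a wide spread over the oxLDL values, and its log2 difference of 0.21 (SE 0.11) did not pass (adjusted p = 0.135, edgeR). It passed without the trend, at 0.53. Lipa had 106, 115, 106, 91.0 and 101 CPM, overlapping with oxLDL at replicate 2. It fell by 0.16 (SE 0.07, adjusted p = 0.0771, edgeR) but was 0.36 higher without the trend (adjusted p = 0.00334, edgeR), so its direction depended on that step. Its call was also lost without oxLDL replicate 1 or 4 or oxLDL + pNaKtide replicate 1, 4 or 5.

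Soat1 had 40.2, 41.7, 43.8, 29.8 and 36.5 CPM with oxLDL + pNaKtide, and every library was below the lowest oxLDL value of 48.0 CPM. It fell by 0.51 (SE 0.11, adjusted p = 0.00028, edgeR). With the trend taken out the difference was -0.05 and no longer past the threshold. Of the 10 genes, Soat1 has the second lowest GC content.

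Abcg1 had 10.1, 12.8, 13.3, 12.4 and 12.1 CPM with oxLDL + pNaKtide against 15.9, 17.7, 17.9, 16.5 and 17.1 CPM with oxLDL, with no overlap. It fell by 0.49 (SE 0.11, adjusted p = 0.000841, edgeR), and by 0.58 without the trend. Apoe had 7.53, 8.76, 10.5, 12.1 and 11.0 CPM against 6.92, 6.33, 6.18, 7.66 and 7.69 CPM, where only replicate 1 reached into the oxLDL range. It rose by 0.51 (SE 0.13, adjusted p = 0.00156, edgeR), but its difference was 0.01 without the trend. Apoe has 60% GC. Abca1 had 154, 146, 74.6, 79.6 and 218 CPM, from below all oxLDL libraries to above all of them. Its log2 difference of -0.21 (SE 0.21) did not pass (adjusted p = 0.46, edgeR). It did pass when oxLDL + pNaKtide replicate 5, the highest, was left out, at -0.44.

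With the GC and length trend out, 7 of the 10 genes were called in this comparison, against 36.7% of all genes. Adipocyte markers moved with it as well. Of 9, 6 were higher with oxLDL + pNaKtide than with oxLDL and 0 lower, where 22.1% of all genes were higher and 26.1% lower. Their summed level, scaled to library size alone, was 10510 to 11640 CPM against 9626 to 12320 CPM, which overlapped. The TMM factors ran from 0.87 to 0.976 with oxLDL + pNaKtide and from 1.025 to 1.096 with oxLDL. The TMM scale would thus raise the former sums and lower the latter, and overlap on that scale was not tested. Of 8 preadipocyte and fibroblast markers, 2 were higher and 2 lower, and their sum was 3905 to 6048 CPM against 4236 to 4990 CPM. With the trend out, 4 of these 8 were higher and 2 lower, and the same counts held without Control replicate 1 and IS replicate 4. Their part in the results was not tested either.

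Against control cells, 0 of the 10 genes were called with oxLDL + pNaKtide in edgeR (5.20% of all genes), 4 had an unadjusted p under 0.05 (3468 of the 20139 genes did), and DESeq2 called 1, Apoe (9.04% of all genes). The 4 were Abcg1 (-0.29), Apoe (0.33), Lipa (-0.16) and Soat1 (-0.27).

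With IS, no difference between cells with and without the peptide was detected for the 10 genes. None of the 10 was called for IS + pNaKtide against IS in edgeR, in DESeq2 or at an unadjusted p under 0.05, and edgeR called 0.00% of all genes (0 genes, with 564 at an unadjusted p under 0.05 and 14 called by DESeq2). Nr1h3 had 123, 135, 119.5, 135.5 and 122 CPM with IS + pNaKtide. All 5 lay above IS replicates 1, 2, 3 and 5 (108 to 119 CPM) and under IS replicate 4 (171 CPM). Its log2 difference was 0.03 (SE 0.13), and 0.16 without Control replicate 1 and IS replicate 4 (adjusted p = 0.618, edgeR). Npc2 had 759, 867, 733, 731 and 734 CPM, of which 2 were above and 3 within the range of the IS libraries other than replicate 4. Mylip had 67.8, 65.0, 62.9, 65.6 and 65.9 CPM, of which 4 were below the lowest of those 4 IS libraries. Without both libraries the log2 differences were 0.14 for Npc2 and -0.13 for Mylip, 0 of the 10 genes were called in edgeR, with 0 at an unadjusted p under 0.05, and 0.0348% of all genes were called. Against control cells, 0 of the 10 were called in edgeR with IS + pNaKtide (0.358% of all genes), 4 had an unadjusted p under 0.05 (4022 of the 20139 genes did), and DESeq2 called 3, Nr1h3, Mylip and Npc1 (7.38% of all genes). Without Control replicate 1 and IS replicate 4 edgeR called 5 of the 10, against 32.4% of all genes.

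The difference between these changes was tested as such. The change with pNaKtide in oxLDL-treated cells minus that in cells without oxLDL passed for 5 of the 10 genes, against 24.6% of all genes. It was 0.74 for Nr1h2 (SE 0.20, adjusted p = 0.0265), 0.68 for Nr1h3 (SE 0.19, adjusted p = 0.0263) and 0.53 for Npc2 (SE 0.18, adjusted p = 0.045) in edgeR. It was 0.40 for Npc1 (adjusted p = 0.0819) and -0.33 for Mylip (adjusted p = 0.0421) in the same edgeR fit. Nr1h2 and Nr1h3 passed in all 20 fits that left out 1 library. Mylip lost its call when pNaKtide replicate 3 was left out (adjusted p = 0.102, edgeR). Npc2 lost it when either that library or oxLDL + pNaKtide replicate 4 was left out (adjusted p up to 0.104, edgeR), and Npc1 passed in 9 of the 20. With the GC and length trend out, 6 of the 10 passed, against 10.2% of all genes. The values shrank to 0.30 for Nr1h2 (adjusted p = 0.096, edgeR) and 0.29 for Nr1h3 (adjusted p = 0.0862, edgeR). Npc1 grew to 0.68 (adjusted p = 0.0166, edgeR), Mylip was at -0.37 and Npc2 at 0.55. Lipa was newly called, at 0.48 (adjusted p = 0.0367, edgeR). Without Control replicate 1 and IS replicate 4, 6 of the 10 passed, against 40.0% of all genes, with Soat1 added (-0.37, adjusted p = 0.0403, edgeR).

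The change with pNaKtide in oxLDL-treated cells minus that in IS-treated cells passed for 7 of the 10 genes, against 29.3% of all genes. It was 0.78 for Nr1h2, 0.71 for Nr1h3, 0.62 for Apoe and 0.57 for Npc2, and -0.60 for Abcg1, -0.51 for Soat1 and -0.29 for Mylip, with adjusted p from 0.0122 to 0.0517 in edgeR. Leaving out 1 library cost only Mylip its call, without IS replicate 4 or oxLDL + pNaKtide replicate 4. With the trend out, 6 of the 10 passed, against 17.3% of all genes. Nr1h2 was then at 0.37 and Nr1h3 at 0.31, and Apoe (0.16) and Soat1 (-0.10) were not called. Npc1 was newly called, at 0.55 (adjusted p = 0.0206, edgeR), and Abcg1 was at -0.67, Npc2 at 0.63 and Mylip at -0.32. Without Control replicate 1 and IS replicate 4, 7 of the 10 passed, against 24.3% of all genes, with 0.60 for Nr1h2 and 0.57 for Nr1h3.

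Other genes of the pathway, taken from lists written by role with earlier results of these data known, moved on both sides. They are given for oxLDL against control and for oxLDL + pNaKtide against oxLDL, which share the oxLDL libraries. Beside the counts stand, for all genes, 18.1% higher and 18.0% lower in the former and 22.1% higher and 26.1% lower in the latter. With the GC and length trend out, 18.7% of all genes were called in the former and 36.7% in the latter. Of 7 other efflux transporters and acceptors tested, 0 were higher and 3 lower with oxLDL, and 4 were higher and 1 lower with oxLDL + pNaKtide. Scarb1, the HDL receptor, had 268 ± 21.4 CPM with oxLDL, 375 ± 58.8 CPM in control cells and 384 ± 48.9 CPM with oxLDL + pNaKtide (SD, n = 5). Its log2 fold changes were -0.485 (adjusted p = 0.00744, edgeR) and 0.52 (adjusted p = 0.000227, edgeR). The counts without the GC and length trend were 1 higher and 2 lower, and 2 higher and 2 lower. Both Scarb1 changes were called without the GC and length trend too, at -0.38 and 0.44. The median log2 fold change of this list was -0.46 and 0.52 in these comparisons, where that of all genes was 0.045 and -0.09.

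Of 13 other LXR target genes tested out of 18 listed, 2 were higher and 5 lower with oxLDL, and 6 were higher and 2 lower with oxLDL + pNaKtide, with medians of -0.12 and 0.235. Lpcat3, which places polyunsaturated fatty acids into phospholipids, fell by 0.52 and then rose by 0.73. Fasn, fatty acid synthase, fell by 0.56 and rose by 0.62. Srebf1, the gene of the lipogenic factor SREBP1c, fell by 0.37 (adjusted p = 0.00818, edgeR) and rose by 0.235 (adjusted p = 0.0329, edgeR), but was -0.12 and -0.06 without the GC and length trend, past the threshold in neither. Lpcat3 (-0.33 and 0.52) and Fasn (-0.37 and 0.40) were called without the trend too. Arl4c, a small GTPase gene named after its values were seen, rose by 0.54 (adjusted p = 0.0523, edgeR) and fell by 0.73 (adjusted p = 0.00699, edgeR). Without the GC and length trend, the counts of this list were 3 higher and 3 lower with oxLDL, and 5 higher and 2 lower with oxLDL + pNaKtide. With IS against control, 0 of the 13 were higher and 2 lower, Lpcat3 and Fasn, where 4.45% of all genes were higher and 3.49% lower.

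Of 15 LXR partners and coregulators, 2 were higher and 3 lower with oxLDL, and 3 were higher and 8 lower with oxLDL + pNaKtide, with medians of 0.18 and -0.17. With oxLDL, 6 were higher and 4 lower without Control replicate 1 and IS replicate 4, where 47.6% of all genes were called. The 3 lower ones in the fit of all libraries were Rxra and Rxrb, which encode retinoid X receptors that pair with LXR, and Gps2, a corepressor subunit gene. The same 3 were the ones higher with oxLDL + pNaKtide. With the GC and length trend out, the counts of this list dropped to 0 higher and 1 lower with oxLDL, and 1 higher and 3 lower with oxLDL + pNaKtide, and none of these 3 genes was called in either.

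Vldlr, the VLDL receptor gene, had 138 ± 12.8 CPM in control cells, 160.0 ± 10.2 CPM with oxLDL and 106 ± 14.8 CPM with oxLDL + pNaKtide (SD, n = 5). Its product is among those that MYLIP marks for degradation. Its difference of 0.215 with oxLDL did not pass (adjusted p = 0.107, edgeR), though it did without Control replicate 1 and IS replicate 4 (0.27, adjusted p = 0.0118, edgeR). Vldlr fell by 0.59 with oxLDL + pNaKtide against oxLDL (adjusted p = 4.62e-05, edgeR). Without the GC and length trend the log2 fold change of Vldlr in the latter was -0.30 and called.

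Of 15 genes of intracellular sterol transport, 7 were higher and 2 lower with oxLDL, and 1 was higher and 10 lower with oxLDL + pNaKtide, with medians of 0.21 and -0.28. Osbpl8, an oxysterol-binding protein gene, rose by 0.815 and fell by 1.06. Lamp2, the gene of a lysosomal membrane protein, rose by 0.57 and fell by 0.88. Without the trend Osbpl8 was at 0.40 and -0.47 and called, and Lamp2 at -0.01 and -0.10 and not called. With oxLDL, 9 of the 15 were higher and 3 lower without Control replicate 1 and IS replicate 4, where 47.6% of all genes were called. Without the trend, 1 of the 15 was higher and 0 lower with oxLDL, and 0 were higher and 6 lower with oxLDL + pNaKtide. Of all genes 18.7% and 36.7% were then called. Of 6 other genes of cholesteryl ester synthesis and hydrolysis, Lipe, hormone-sensitive lipase, fell by 0.33 (not called without the trend) and rose by 0.58, and Nceh1, which splits cholesteryl esters outside the lysosome, fell by 0.56 with oxLDL + pNaKtide, with medians of 0.14 and -0.13 for the list. Nceh1 was not called without the trend (-0.35, adjusted p = 0.214, edgeR). Of 6 oxysterol enzymes tested, 0 were called with oxLDL in edgeR, and only Cyp46a1, which makes an oxysterol from cholesterol, was higher with oxLDL + pNaKtide (0.42, adjusted p = 0.0394, edgeR), with medians of -0.11 and 0.30 for the list. Cyp46a1 was not called without the trend (0.10, adjusted p = 0.691, edgeR).

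**Figure D4:**
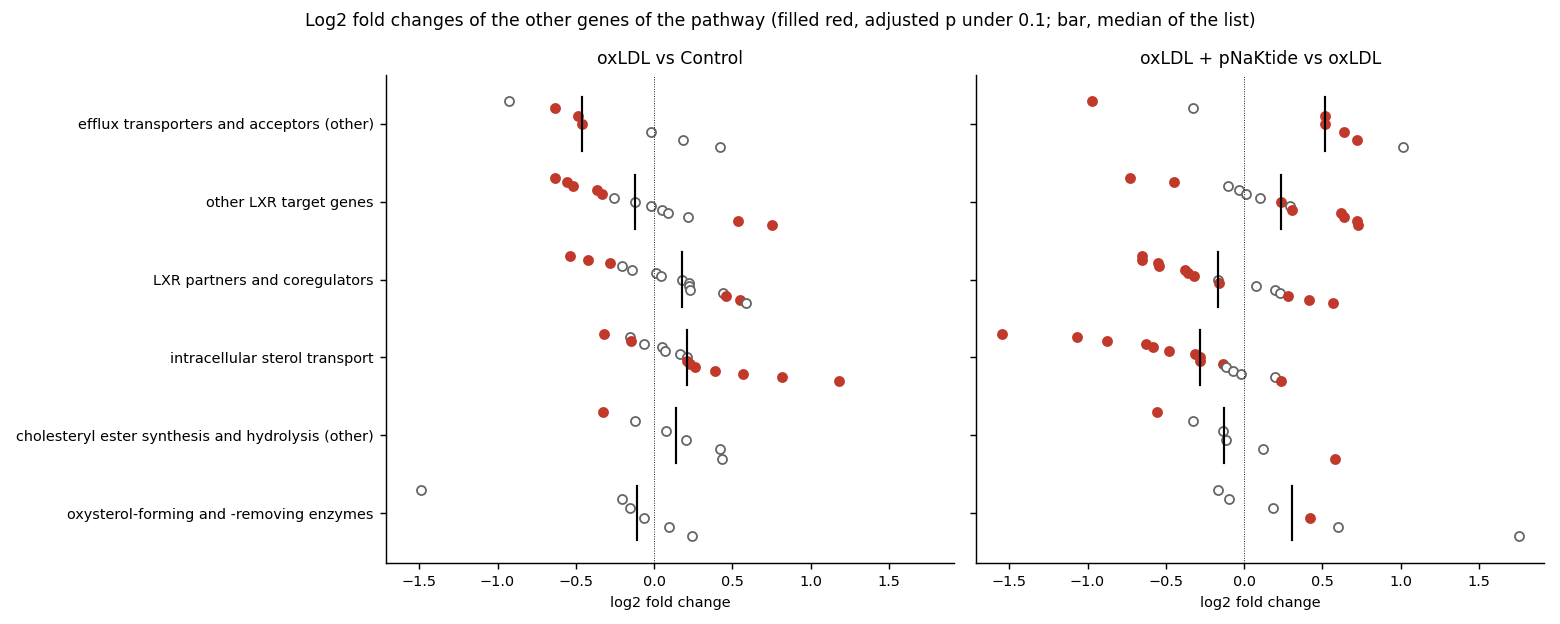
Log2 fold changes (horizontal axis) of the other genes of the pathway in 6 lists (rows), for oxLDL against control and oxLDL + pNaKtide against oxLDL, with 1 point per gene tested, filled where the adjusted p was under 0.1, and a bar at the list's median. Sterol transport genes lie mostly to the right with oxLDL (7 higher, 2 lower) and to the left with oxLDL + pNaKtide (1 higher, 10 lower).

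By the root mean square difference over the 6 centred group means of log2 CPM, among the 12579 genes whose log2 CPM averaged 1 or more, those most like Nr1h3 were Gm9347 (0.0203), Fbxo2 (0.0257), Ly6c1 (0.0286), Sod3 (0.0312) and Phgdh (0.0357). Nr1h2 stood at rank 556 and Npc2 at rank 1022 of that order. Those most like Abca1 were Tril (0.0338), Bmper (0.0356), Bahcc1 (0.0435), Mast4 (0.048) and Cbl (0.0487), and the closest of the other 9 members was Lipa at rank 1184. Ly6c1 has near-identical neighbours, so its counts are uncertain. The group means behind these values share the depth and the GC and length trend of their libraries.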

How the data were processed

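RNA from 30 libraries of 3T3-L1 cells, 5 in each of 6 groups taken from the labels, was sequenced paired end after a stranded mRNA kit. Per the labels and the study's methods, the authors trimmed reads with Trimmomatic 0.38, aligned them to GRCm38 with HISAT2 2.1.0, counted them per gene and used DESeq2 1.20.0. No annotation release or strand setting is stated for the counting. The deposited counts are raw, per Ensembl gene. The authors also deposited FPKM values, scaled to gene length and library size with lengths that are not stated. Their table of normalized counts was not used here. Symbols were assigned to 54079 of 54232 genes from a GENCODE annotation of GRCm38.

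Counts were fitted in edgeR 4.0.16 (R 4.3.3) with TMM scaling and the robust quasi-likelihood test over all 6 groups, for 20139 genes with more than 14 counts in all, and p-values were BH-adjusted over these genes, two-sided, with calls under 0.1. CPM are TMM-normalized, except the summed CPM of the marker lists, which are scaled to library size alone. The common biological coefficient of variation was 14%. The GC and length trend of each library was fitted with mgcv 1.9.3 and entered as an offset, and 99.8% of tested genes had both values. Alternatives used DESeq2 1.42.0, limma 3.58.1 on log2(FPKM + 1) and log2(FPKM + 0.1), other scalings, filters and samples. The code was tested on simulated data. Tables were handled in Python 3.11.15 with numpy 2.4.6 and pandas 2.3.3.

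The members and lists were chosen with earlier results of these data known. Of each list, at most the 3 genes of smallest adjusted p in oxLDL against control and in oxLDL + pNaKtide against oxLDL are named, with Vldlr and Srebf1, and Arl4c was named after its values were seen. A gene of the lists is not reported here. All 60 pairs of replicates differed by more than counting noise (chi-square per degree of freedom 1.3 or more). Some came close to it, with 1.3 for IS + pNaKtide replicates 3 and 4. The value was 1.36 for pNaKtide replicates 1 and 2, 1.4 for 4 and 5, and 57.1 for IS replicates 1 and 4. Whether the close pairs come from the same culture was not tested.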

Additional observations from a re-analysis of the deposited data

Results flagged for a closer look

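In 7 of the 60 sets of 5 libraries (10 genes in 6 groups) the highest or lowest library stood apart by Dixon's test, where chance gives about 1 in 20. IS replicate 4 was high for Nr1h2 (111.1 CPM, the others 63.19 to 71.0), Nr1h3 (170.9 CPM, the others 108.2 to 119.3) and Npc2 (1031 CPM, the others 637.8 to 739.1). IS + pNaKtide replicate 2 was low for Abca1 (78.65 CPM, the others 122.7 to 137.0) and high for Npc2 (867.3 CPM, the others 730.7 to 758.7). Control replicate 1 was high for Mylip (63.26 CPM, the others 52.23 to 54.77), and Control replicate 3 for Lipa (134.7 CPM, the others 107.1 to 112.7).

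The change with pNaKtide differed, on the log2 scale, between cells with oxLDL and cells without it by 0.74 for Nr1h2, 0.68 for Nr1h3, 0.53 for Npc2, 0.40 for Npc1 and -0.33 for Mylip. It differed between cells with oxLDL and cells with IS by 0.78 for Nr1h2, 0.71 for Nr1h3, 0.62 for Apoe, 0.57 for Npc2, -0.60 for Abcg1, -0.51 for Soat1 and -0.29 for Mylip. All 12 passed an adjusted p of 0.1 in edgeR. With the GC and length trend out, the first difference was 0.30 for Nr1h2 and 0.29 for Nr1h3, and the second 0.37 for Nr1h2, 0.31 for Nr1h3, 0.16 for Apoe and -0.10 for Soat1, of which Apoe and Soat1 no longer passed. The first was then 0.68 for Npc1 and 0.48 for Lipa, and the second 0.55 for Npc1, each past the threshold.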

How the results depend on the processing

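Of 2500 values of single genes under the alternatives, 2325 kept their side of the threshold, and 99 changed sign while past the threshold in neither fit. With the GC and length trend out, alone, with the replicate block, or without Control 1 and IS 4 (the last chosen after seeing the data), Lipa in oxLDL against control was -0.38, -0.38 and -0.46, Soat1 there -0.08, -0.08 and -0.11, and Lipa in oxLDL + pNaKtide against oxLDL 0.36, 0.36 and 0.36. Lipa in IS + pNaKtide against control was -0.31 without both libraries and the trend.

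The count of the 10 genes called in IS against control went from 2 to 3 with DESeq2, 4 with the replicate block, 4 with block and trend out, 0 with only the compared groups, 6 without Control 1 and IS 4, and 6 with the trend out as well. For oxLDL + pNaKtide against control it went from 0 to 1 with DESeq2, 3 with library size only, 1 with more than 14 counts in every library, 1 with either limma fit and 1 without both libraries. For IS + pNaKtide against control it went from 0 to 3 with DESeq2, 1 with more than 14 counts in every library, 3 with the block, 2 with the trend out, 3 with both, 2 with only the compared groups, 5 without both libraries and 6 with the trend out as well. Counts over all 20139 genes moved under these settings too. For IS they went from 1599 to 3423 with the block, 1229 with block and trend out, 0 with only the compared groups, 9140 without both libraries and 6422 with the trend out as well. For oxLDL + pNaKtide against control they went from 1047 to 1821 with DESeq2 and 1968 with library size only, and for IS + pNaKtide against control from 72 to 1338 with the block, 431 with the trend out, 1152 with only the compared groups and 6517 without both libraries. Leaving out 1 library gave 4 to 6 calls for oxLDL, 0 to 5 for IS, 7 to 9 for oxLDL + pNaKtide against oxLDL, 0 to 1 for it against control, 0 to 5 for IS + pNaKtide against control, 2 to 6 for the oxLDL by pNaKtide difference, 6 to 7 for that between oxLDL and IS, 7 to 9 for any difference, and 0 to 0 for the others. These ranges are of the 10 genes only, and the counts over all genes in these fits are not given beside them.

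The 40 correlations of same-numbered deviations ran from -0.66 to 0.74, with 20 over 0.1. For replicate 4 they were 0.58 to 0.74 in the comparisons of Control, IS, oxLDL and oxLDL + pNaKtide. In those with pNaKtide alone or IS + pNaKtide they were -0.33 to -0.01. Whether libraries of the same number share a batch was not tested. Over all genes, DESeq2 called 3160 against 1599 in edgeR for IS and 1486 against 72 for IS + pNaKtide, both against control. Library size alone turned the split for IS from 897 higher and 702 lower to 2125 and 416. The causes were not tested.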
